A study of Homo sapiens with 18 samples.

Results

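The 36 genes described here carry out or control the synthesis of cholesterol and fatty acids. They were chosen by symbol from a fixed list, found in the DU145 table and then followed by Ensembl identifier into the tables of C4-2B and 22Rv1. The list was chosen with earlier results of these data known. All 36 were present in the 3 tables, which share 18445 genes, and all 36 passed the filter on low counts in each line. They were read as 18 enzymes of sterol synthesis, 5 genes of the sterol-sensing machinery, 5 genes of sterol movement and receptor turnover, and 8 genes of fatty acid synthesis. Some well-known genes of these pathways are not on the list and are not analysed here.

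RNA was sequenced from 3 human prostate cancer cell lines in 6 groups of 3 libraries. In C4-2B, a castration-resistant line derived from LNCaP, and in 22Rv1, a line from a relapsed xenograft, both grown in RPMI-1640 with serum, the groups were control cells given a scrambled siRNA and cells given siRNA against EMD. DU145, a line from a brain metastasis grown in DMEM with serum, had the same 2 groups per the protocol, although the library names of its knockdown samples carry the prefix shEMD, which usually marks a short hairpin. EMD encodes emerin, a protein of the inner nuclear membrane. Every group received a lipid transfection mix that was removed after 24 hours, and each line carries its own date as batch label, so line, table, date and, for DU145, medium cannot be told apart. Whether the libraries of a group came from separate cultures is not stated, so the p-values measure only the spread between these libraries.

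Cholesterol is built from acetyl-CoA through mevalonate, isoprenoid pyrophosphates and squalene, which is cyclised to lanosterol and trimmed to cholesterol. The transcription factor SREBP2, encoded by SREBF2, drives the genes of this route, and SREBP1, encoded by SREBF1, drives those of fatty acid synthesis, with overlap between them. Both precursors sit in the endoplasmic reticulum with SCAP, which carries them to the Golgi for cleavage when sterols are low, while INSIG1 and INSIG2 hold SCAP back when sterols are high. Oxysterols act through LXR receptors, which raise SREBF1, the efflux pumps ABCA1 and ABCG1, and MYLIP. Many prostate tumours run lipid synthesis at a high rate.

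Library totals ran from 14722733 to 43311727 reads. Levels are CPM, the share of a library's reads that fall on a gene on the usual per-library scale, adjusted by the trimmed mean of M-values (TMM). Each fold change is a log2 ratio of the knockdown to the control level with its standard error, and adjusted p-values come from edgeR's quasi-likelihood test over all genes of a line; a gene is said to rise or fall at an adjusted p under 0.05. EMD fell in each line, with -3.07 ± 0.11 in C4-2B, -1.73 ± 0.07 in 22Rv1 and -3.21 ± 0.08 in DU145 and no overlap between the arms. Of the prostate luminal markers, KLK3, which encodes prostate-specific antigen, was at a mean of 1509 CPM in C4-2B controls and 951 CPM in knockdowns, at 20.0 and 17.7 CPM in 22Rv1, and at 0.528 and 0.466 CPM in DU145, where this defining marker is thus near 0. The luminal keratin gene KRT8 was at 441 and 431 CPM in C4-2B, at 889 and 558 CPM in 22Rv1, and at 1243 and 403 CPM in DU145. Of the 15 markers of fibroblast, endothelial, blood and fat cells, 5, 8 and 15 were in the tables of C4-2B, 22Rv1 and DU145. Their sum ran from 27.6 to 30.3 CPM in C4-2B controls and from 17.9 to 18.9 CPM in its knockdowns, with VWF the largest part, and from 3.18 to 3.47 and from 0.687 to 1.22 CPM in 22Rv1. In DU145 it ran from 95.7 to 102 and from 36.1 to 39.2 CPM, of which CD68, a lysosomal protein, made up 93.5 to 94.6 and 27.7 to 30.8 CPM. The sum of the 4 fibroblast markers of DU145 went the other way, from between 2.15 and 3.71 to between 4.66 and 5.78 CPM. Among them COL1A2 went from 2.24, 1.34 and 1.19 to 4.59, 4.065 and 3.33 CPM. DCN went from 1.38, 0.76 and 1.16 to 0.80, 0.42 and 0.90 CPM, with overlapping arms. PTPRC, the common antigen of white blood cells, was not listed in the C4-2B and 22Rv1 tables. The fat cell markers ADIPOQ, PLIN1, FABP4 and LEP summed to at most 1.95 CPM in any library. The part of these markers in the results below was not tested. In bulk RNA, fewer cells of a kind and less RNA per cell cannot be told apart.

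The promoters of 5 members are shown because these genes set the contrast described below. SREBF1 rose in all 3 lines, SREBF2 is the regulator of the sterol route, and HMGCS1, LSS and TM7SF2 are enzymes that fell in DU145 and rose in 22Rv1. The 22Rv1 rise of HMGCS1 was small (0.16) and was lost with library totals and with cyclic loess. Each is the RefSeq window of 250 bases before to 50 bases after the start of the gene in GRCh38.p14, in the direction of the gene. Capitals mark 3 motifs on either strand, namely the sterol regulatory element TCACNCCAC, which SREBPs bind, the CCAAT box, which NF-Y binds and which reads ATTGG on the other strand, and the E-box CACGTG.
SREBF1, chr17:17836937-17837236, minus strand: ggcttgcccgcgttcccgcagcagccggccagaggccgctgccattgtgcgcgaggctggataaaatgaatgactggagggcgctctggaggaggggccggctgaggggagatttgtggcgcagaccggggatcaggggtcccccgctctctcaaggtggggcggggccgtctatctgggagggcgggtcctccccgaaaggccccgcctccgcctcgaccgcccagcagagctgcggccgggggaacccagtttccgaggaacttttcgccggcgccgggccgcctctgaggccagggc
SREBF2, chr22:41832855-41833154, plus strand: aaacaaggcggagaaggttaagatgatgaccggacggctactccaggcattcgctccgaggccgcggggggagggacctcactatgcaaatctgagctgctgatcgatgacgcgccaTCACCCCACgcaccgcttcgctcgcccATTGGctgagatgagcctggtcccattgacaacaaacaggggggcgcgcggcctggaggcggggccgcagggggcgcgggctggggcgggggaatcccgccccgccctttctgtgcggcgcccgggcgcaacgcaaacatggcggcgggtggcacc
HMGCS1, chr5:43313363-43313662, minus strand: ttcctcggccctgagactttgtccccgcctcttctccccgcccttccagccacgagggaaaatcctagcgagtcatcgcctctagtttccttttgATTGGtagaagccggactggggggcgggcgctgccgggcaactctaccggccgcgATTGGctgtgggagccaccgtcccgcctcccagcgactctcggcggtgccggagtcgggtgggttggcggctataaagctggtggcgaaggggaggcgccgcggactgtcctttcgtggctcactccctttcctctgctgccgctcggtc
LSS, chr21:46228725-46229024, minus strand: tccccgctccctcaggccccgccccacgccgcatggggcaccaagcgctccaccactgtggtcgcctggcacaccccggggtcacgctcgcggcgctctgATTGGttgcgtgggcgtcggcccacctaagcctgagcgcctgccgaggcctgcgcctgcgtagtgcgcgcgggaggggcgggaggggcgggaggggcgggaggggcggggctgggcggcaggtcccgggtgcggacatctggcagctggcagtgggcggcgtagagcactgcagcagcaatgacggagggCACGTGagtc
TM7SF2, chr11:65111622-65111921, plus strand: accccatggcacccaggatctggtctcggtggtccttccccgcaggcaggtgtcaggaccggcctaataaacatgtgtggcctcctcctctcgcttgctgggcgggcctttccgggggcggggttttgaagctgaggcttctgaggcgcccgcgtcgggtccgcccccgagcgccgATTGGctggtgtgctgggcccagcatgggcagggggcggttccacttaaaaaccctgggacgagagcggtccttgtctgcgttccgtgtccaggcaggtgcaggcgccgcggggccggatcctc

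A promoter entry was found for 31 of the 36 members. The CCAAT box was in at least 1 window of 21 of them (67.7%), against 39.7% of all 27305 genes in the RefSeq table. Counted by window, it was in 25 of the 43 windows of the members (58.1%) and in 34.6% of all 35116 windows. It was in all of the windows printed except that of SREBF1. The sterol regulatory element was in 1 member's window (3.23%), that of SREBF2, against 1.39% of all genes. The E-box was in 5 members' windows (16.1%), those of ABCA1, INSIG1, LSS, SC5D and SCAP, against 8.77% of all genes. HMGCS1 has a further RefSeq window that starts inside the printed one and holds none of the 3 motifs. A match is a string of letters in this window and was not tested as a binding site.

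**Figure D1:**
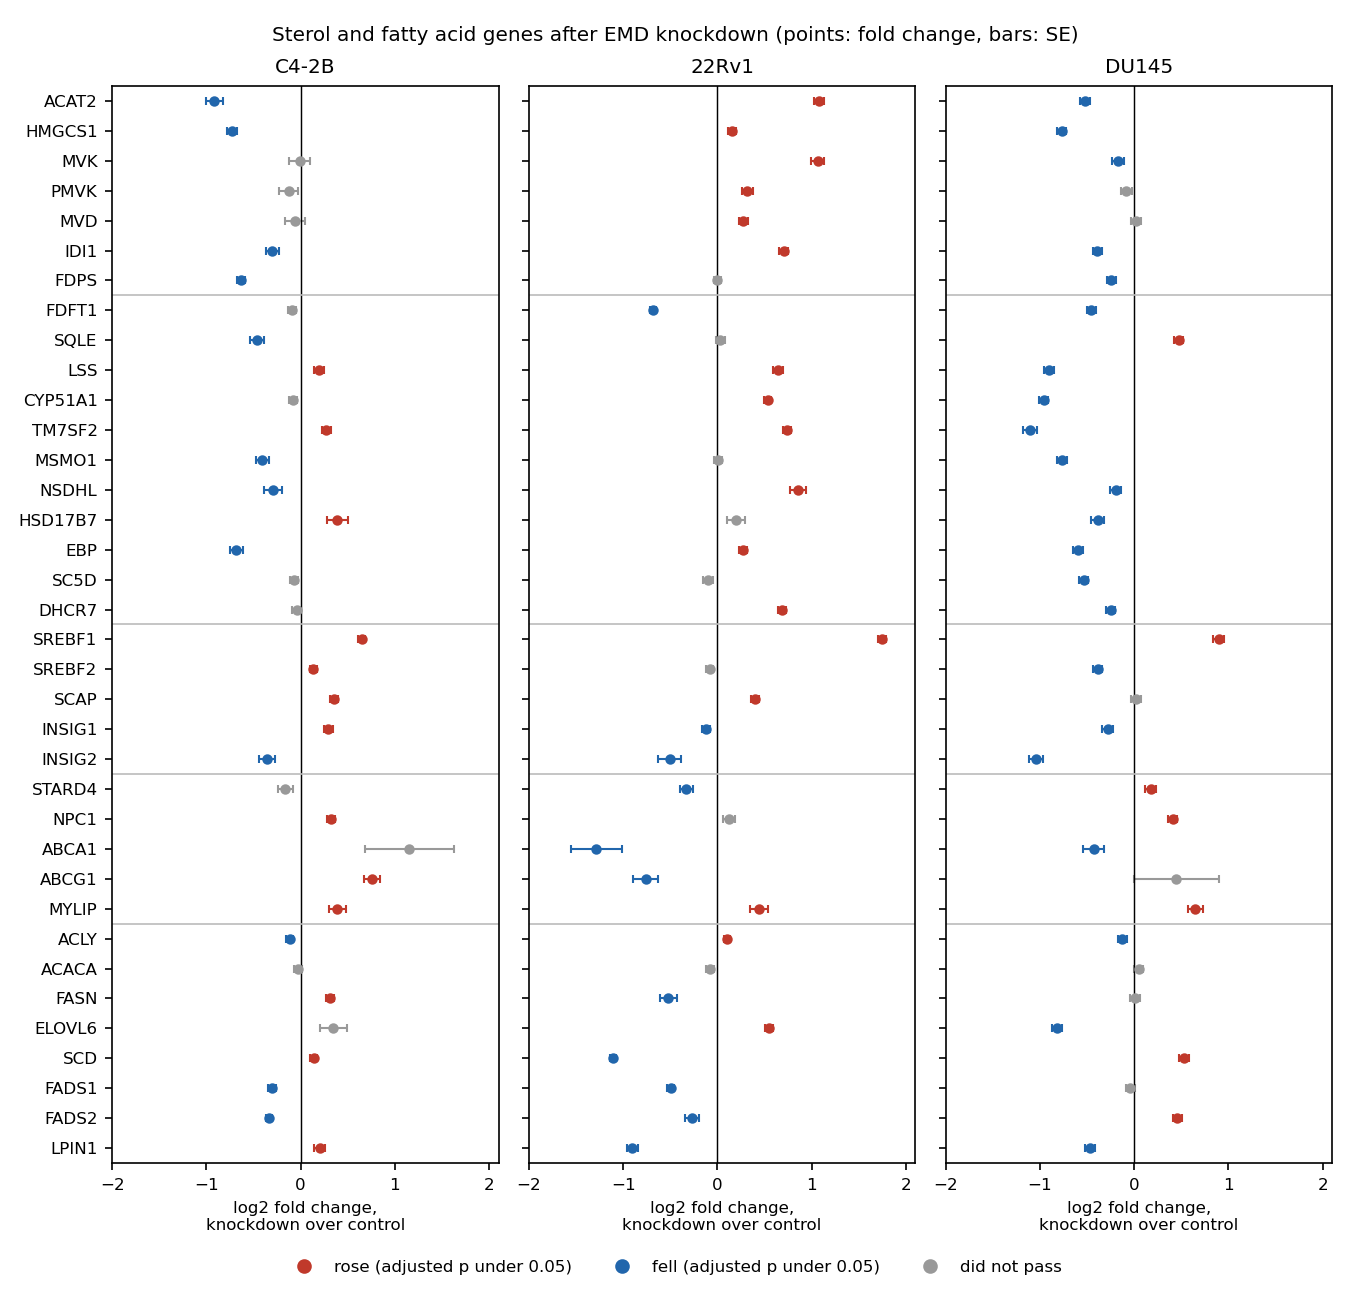
Log2 fold change of knockdown over control (points) with its standard error (bars) for the 36 genes in 3 lines of 3 control and 3 knockdown libraries each, grouped from top to bottom as mevalonate steps, squalene to cholesterol, sterol sensing, sterol movement, and fatty acid synthesis. Of the 18 sterol synthesis enzymes in the upper blocks, 12 rose in 22Rv1 and 15 fell in DU145.

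Of the 18 sterol synthesis enzymes, 10 (55.6%) moved in opposite directions in 22Rv1 and DU145. In DU145, 15 of the 18 fell and 1 rose, with a median log2 fold change of -0.421, where 23.6% of all genes tested fell and 24.1% rose. In 22Rv1, 12 rose and 1 fell (median 0.298), where 33.5% of all genes rose and 34.3% fell. In C4-2B, 8 fell and 3 rose (median -0.106), where 22.3% of all genes fell and 19.4% rose. That median was -0.0544 with library totals and ran from -0.074 without control 1 to -0.199 without knockdown 1. The median over all genes tested was 0.01 in C4-2B, -0.00381 in 22Rv1 and 0.01 in DU145. None of the 18 moved the same way in all 3 lines, a share that was not counted over all genes. The 10 that rose in 22Rv1 and fell in DU145 were ACAT2, HMGCS1, MVK, IDI1, LSS, CYP51A1, TM7SF2, NSDHL, EBP and DHCR7. Of all genes tested in both lines, 20.2% passed in opposite directions, in either order, with a difference past the threshold. That share was not matched for level. The calls of HMGCS1 in 22Rv1 and of MVK and NSDHL in DU145 were lost in at least 1 alternative fit.

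Genes of higher level as a class rose in 22Rv1, which stands beside the rise of the enzymes there. Of all 22Rv1 genes between 30 and 100 CPM 49.8% rose, and of those from 100 CPM 55.2%, with medians of 0.134 and 0.146. Of the 18 enzymes 16 lay at 30 CPM or more in 22Rv1, and 11 of these rose and 1 fell. With cyclic loess normalization in limma-voom, which removes a trend with level, 12 of the 18 rose and 4 fell, and over all 36 members 16 rose and 16 fell, against 17 and 11. In that fit the calls of HMGCS1 in 22Rv1 (adjusted p = 0.828) and ACLY in 22Rv1 (0.436) were lost. FDFT1, FDPS, MSMO1 and SC5D were its 4 falls. In DU145 the medians of the level classes lay between 0.00194 and 0.0262. The share of genes called there climbed with level, and in the classes from 10 CPM, where all 18 enzymes lay, 31.8% to 34.8% of genes fell and 32.3% to 36.1% rose. In C4-2B all 18 enzymes lay at 10 CPM or more too, and 21.2% of genes fell between 10 and 30 CPM, 29.7% between 30 and 100 CPM and 39.5% from 100 CPM. Of the 12 enzymes from 30 CPM in C4-2B, 6 fell and 2 rose.

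**Figure D2:**
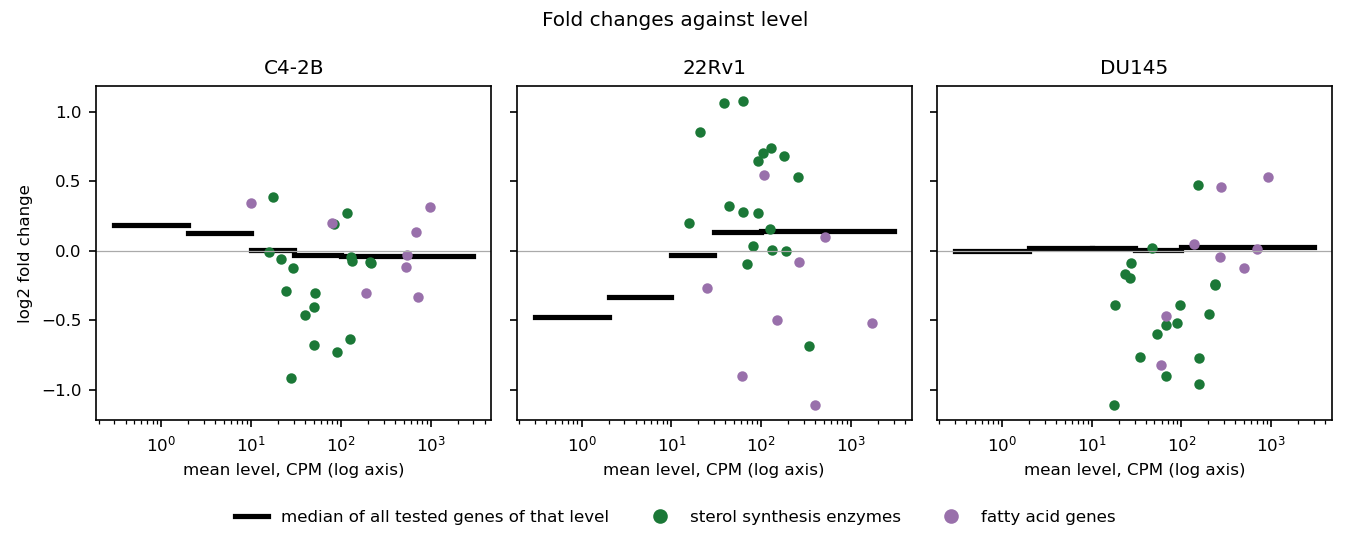
Log2 fold change against the mean level of the 6 libraries of a line (CPM, log axis), with 18 sterol synthesis enzymes in green, 8 fatty acid genes in purple and black bars at the median of all tested genes in each level class (the outer classes have no outer limit and are drawn to the edge of the plot). In 22Rv1 the bars climb from -0.479 to 0.146, and in DU145 they stay near 0 while most green points lie below them.

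The early steps, from acetyl-CoA to farnesyl pyrophosphate, rose in 22Rv1 in 6 of 7 cases (median 0.32) and fell in 4 of 7 in C4-2B (median -0.302) and in 5 of 7 in DU145 (median -0.24). Of all genes 33.5% rose in 22Rv1, 22.3% fell in C4-2B and 23.6% fell in DU145, and at the levels of these enzymes in 22Rv1 (30 CPM or more) 49.8% to 55.2% of genes rose. ACAT2, the cytosolic thiolase that joins the first acetyl-CoA units, stood at 39.3, 40.4 and 41.4 CPM in the 22Rv1 controls and 84.1, 85.0 and 86.5 CPM in the knockdowns, a rise of 1.08 ± 0.05 (edgeR adjusted p = 2.33e-13). In C4-2B it went the other way, from between 35.3 and 38.0 CPM in the controls to 19.8, 17.4 and 20.7 CPM (-0.91 ± 0.09, edgeR adjusted p = 3.39e-09). DU145 controls held 102, 104 and 106 CPM and knockdowns 70.2, 75.1 and 72.1 CPM (-0.52 ± 0.05). The arms did not overlap in any line, with every knockdown library above the controls in 22Rv1 and below them in C4-2B and DU145. Exons of ACAT2 overlap those of SOD2, the non-coding SOD2-OT1 and TCP1 on the opposite strand (26.5%, 33.9% and 9.2% of its exon bases in GENCODE 29). The strandedness of the libraries is not given in the sources used here, so some of these reads may belong to those genes. The same limit holds for FDPS, HMGCS1 and IDI1, with opposite-strand antisense genes over 18.6%, 15.0% and 14.8% of their exon bases. Some other members have smaller overlaps.

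HMGCS1 makes HMG-CoA, the precursor of mevalonate. Its C4-2B controls held 119, 112 and 109 CPM and its knockdowns 65.7, 66.6 and 72.5 CPM (-0.73 ± 0.05, edgeR adjusted p = 3.48e-11). In DU145 the levels were 195, 198 and 202 CPM and 116, 118 and 115 CPM (-0.77 ± 0.05, edgeR adjusted p = 7.90e-14). In 22Rv1 they were 116, 118 and 122 and 128, 136 and 133 CPM, a small rise of 0.16 ± 0.04 that was lost with library totals (adjusted p = 0.11) as well as in the loess fit above. The falls in C4-2B and DU145 were of like size, and the difference between those lines was 0.03 ± 0.06 (adjusted p = 0.765).

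MVK, mevalonate kinase, and IDI1, the isomerase of isopentenyl pyrophosphate, follow. MVK stood at 24.1, 27.4 and 24.5 CPM in 22Rv1 controls and 50.8, 53.2 and 54.0 CPM in knockdowns (1.06 ± 0.07, edgeR adjusted p = 1.45e-11). Its DU145 levels were 25.5, 26.0 and 23.9 against 23.3, 23.6 and 20.4 CPM (-0.17 ± 0.07, edgeR adjusted p = 0.0367). That call was weak, since it was lost in DESeq2 (adjusted p = 0.0998), with library totals (0.102), with no filter (0.0727) and without control 1, 2 or 3 or knockdown 1 or 3 (0.0739 to 0.424). In C4-2B the arms of MVK overlapped (-0.01 ± 0.11). IDI1 rose in 22Rv1 from 78.3, 83.9 and 80.4 to 129, 129 and 136 CPM (0.70 ± 0.04). It fell in DU145 from 114, 108 and 109.8 to 83.5, 88.8 and 81.0 CPM (-0.39 ± 0.05) and in C4-2B by 0.30 ± 0.07. The arms of IDI1 did not overlap in any line.

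PMVK and MVD, the kinase and decarboxylase between MVK and IDI1, moved in 22Rv1 and passed in neither of the other lines. PMVK rose by 0.32 ± 0.06 and MVD by 0.28 ± 0.05 in 22Rv1. In C4-2B they gave -0.13 ± 0.10 and -0.06 ± 0.11, and in DU145 -0.08 ± 0.06 and 0.02 ± 0.06. FDPS, which makes farnesyl pyrophosphate, fell in C4-2B by 0.63 ± 0.04 and in DU145 by 0.24 ± 0.05. In 22Rv1 it gave -0.00089 ± 0.04, with overlapping arms, and fell in the loess fit (adjusted p = 0.00374).

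The later steps, from squalene to cholesterol, fell in DU145 in 10 of 11 cases with 1 rise (median -0.533). In 22Rv1 6 rose and 1 fell (median 0.272), and in C4-2B 3 rose and 4 fell (median -0.0813). Of all genes 23.6% fell in DU145, 33.5% rose in 22Rv1, and 19.4% rose and 22.3% fell in C4-2B. At 30 CPM or more, where most of these enzymes lay in 22Rv1, 49.8% to 55.2% of genes rose. The 22Rv1 count of the later steps lies near that share. TM7SF2, a sterol C14-reductase of the endoplasmic reticulum and nuclear envelope, had the lowest fold change of the 36 members in DU145, from 22.3, 26.0 and 24.2 to 10.2, 11.8 and 11.9 CPM (-1.11 ± 0.08, edgeR adjusted p = 1.14e-12). In 22Rv1 it rose from 100.1, 97.7 and 95.6 to 165, 161 and 162 CPM (0.74 ± 0.04, edgeR adjusted p = 2.19e-12). In C4-2B it rose from 107, 104 and 106 to 135, 126 and 122 CPM (0.27 ± 0.05). No libraries overlapped, and the fold change of 22Rv1 exceeded that of DU145 by 1.79 ± 0.08 (adjusted p = 2.32e-18), more than for any other sterol enzyme. LBR, the other enzyme with this activity and a nuclear envelope protein too, gave -0.31 ± 0.04 in C4-2B, 0.04 ± 0.05 in 22Rv1 and 0.08 ± 0.05 in DU145 (adjusted p = 3.50e-06, 0.477 and 0.195); it was singled out after its values were seen.

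LSS, which cyclises squalene epoxide to lanosterol, and CYP51A1, which removes the first methyl group from lanosterol, stand next to each other in the pathway. LSS fell in DU145 from 85.2, 91.8 and 88.1 to 46.0, 49.6 and 46.6 CPM (-0.90 ± 0.05, edgeR adjusted p = 3.17e-14). It rose in 22Rv1 from 67.8, 76.2 and 71.7 to 107, 111 and 119.7 CPM (0.65 ± 0.05, edgeR adjusted p = 1.14e-09). In C4-2B its controls were at 75.6, 80.6 and 77.6 and its knockdowns at 86.6, 95.1 and 86.1 CPM (0.20 ± 0.05), a rise that was lost without knockdown 2 (adjusted p = 0.0547). CYP51A1 held 206, 207 and 204 CPM in DU145 controls and 100.2, 113 and 104 CPM in knockdowns (-0.96 ± 0.05, edgeR adjusted p = 3.72e-15). In 22Rv1 it held 208, 207 and 214 and 307, 301 and 303 CPM (0.53 ± 0.03). In C4-2B its arms overlapped (-0.08 ± 0.04, adjusted p = 0.134), and it passed as a fall without control 2 (0.0373). Another annotated gene on the same strand, AC000120.2, covers 79.4% of the exon bases of CYP51A1 in GENCODE 29, so its counts depend on how reads were shared out.

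**Figure D3:**
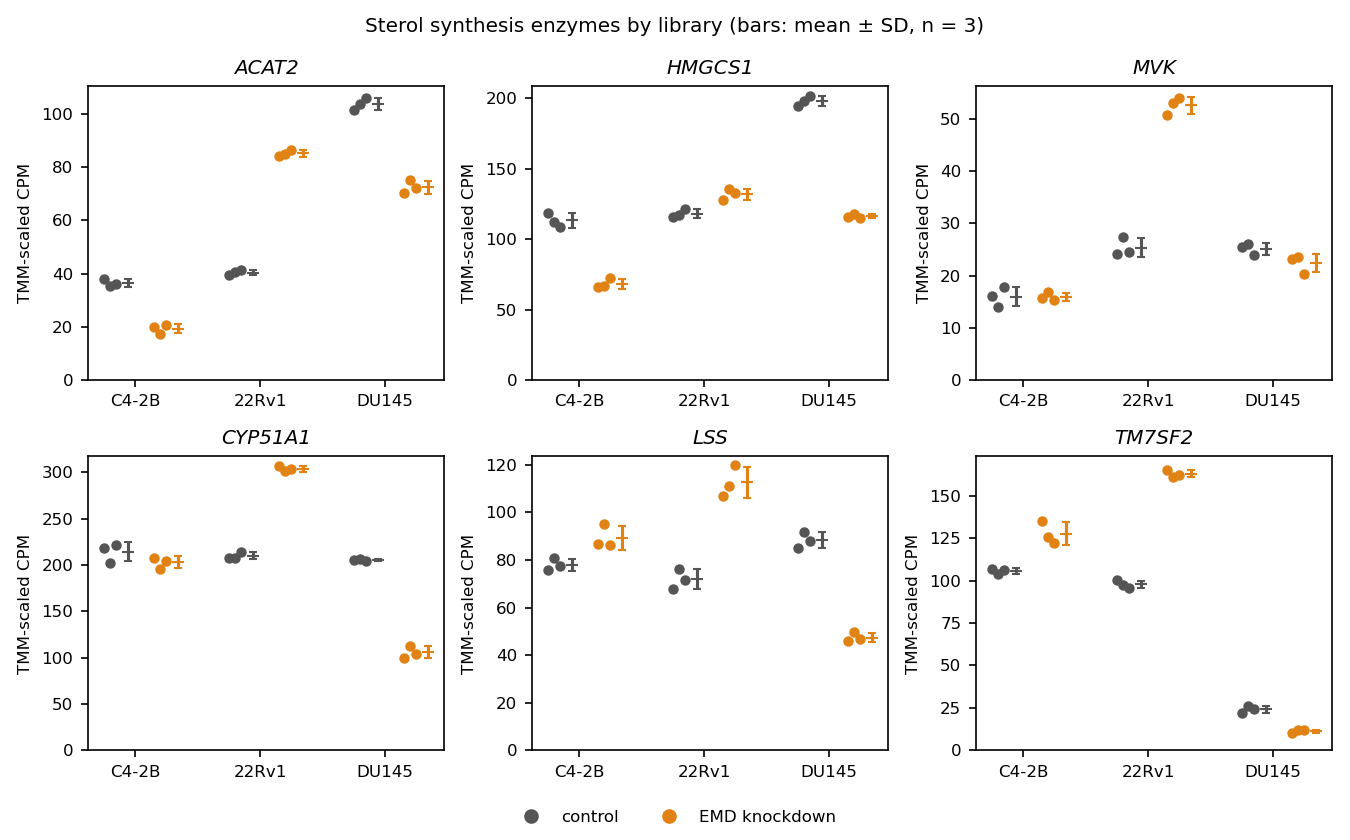
TMM-scaled CPM of 6 sterol synthesis enzymes in each library (points; grey control, orange EMD knockdown) with mean and SD of 3 libraries beside them. In 22Rv1 the orange points of all 6 genes lie above the grey ones and in DU145 below them; in C4-2B ACAT2 and HMGCS1 drop while LSS and TM7SF2 climb.

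DHCR7, EBP and NSDHL, which act late on the sterol nucleus, also rose in 22Rv1 and fell in DU145. DHCR7, the last reductase, rose from 137, 141 and 132 to 218, 214 and 226 CPM in 22Rv1 (0.68 ± 0.04). In DU145 it went from 248, 263 and 264 to 213, 229 and 212 CPM (-0.25 ± 0.05), and in C4-2B it gave -0.04 ± 0.05 (adjusted p = 0.497). EBP, the sterol isomerase, stood at 83.8, 85.9 and 83.2 in 22Rv1 controls and at 98.6, 100 and 107 CPM in knockdowns (0.27 ± 0.05). Its levels fell in DU145 from 66.5, 63.8 and 64.4 to 42.5, 45.7 and 40.4 CPM (-0.60 ± 0.05). In C4-2B they fell from 68.1, 60.0 and 57.2 to 38.7, 36.6 and 40.1 CPM (-0.68 ± 0.07), so C4-2B sided with DU145 for this gene. NSDHL, a C4-demethylation dehydrogenase, rose in 22Rv1 from 13.6, 15.7 and 15.1 to 27.2, 25.4 and 27.1 CPM (0.85 ± 0.08). The falls of NSDHL were smaller, from 28.7, 29.4 and 27.4 to 25.7, 25.6 and 23.3 CPM in DU145 (-0.20 ± 0.06) and from 26.3, 28.1 and 27.2 to 25.7, 22.3 and 18.8 CPM in C4-2B (-0.29 ± 0.10). In C4-2B that call was lost without control 2 or 3 or knockdown 2 or 3 (adjusted p from 0.0511 to 0.147), and in DU145 without control 2 (0.0527) or knockdown 3 (0.126).

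A few enzymes went against their neighbours. SQLE, the squalene epoxidase, was the only one of the 18 to rise in DU145, from 128, 126 and 126 to 172, 188 and 167 CPM (0.47 ± 0.05, edgeR adjusted p = 6.37e-09). It fell in C4-2B from 47.9, 45.4 and 45.2 to 36.4, 32.1 and 31.9 CPM (-0.46 ± 0.07) and gave 0.03 ± 0.05 in 22Rv1. FDFT1, squalene synthase, was the only one to fall in 22Rv1, by 0.69 ± 0.03 (edgeR adjusted p = 4.95e-13), and it fell in DU145 by 0.45 ± 0.05. In C4-2B FDFT1 gave -0.09 ± 0.04 (adjusted p = 0.0905), and without knockdown 1 it passed as a fall (0.0168). So SQLE and FDFT1, at the branch into squalene, had fold changes of opposite sign in DU145 although they act on consecutive steps.

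MSMO1 and SC5D, which carry out oxidations of the late pathway, fell in DU145 by 0.76 ± 0.06 and 0.53 ± 0.05. In C4-2B MSMO1 fell by 0.40 ± 0.06 and SC5D gave -0.07 ± 0.04. In 22Rv1 neither passed (0.0032 ± 0.04 and -0.10 ± 0.06). With cyclic loess both passed there as falls (adjusted p = 0.00759 and 0.00112), SC5D also with library totals (0.00807) and without control 2 (0.0317). HSD17B7, the ketosteroid reductase of the C4 steps, fell in DU145 from 19.0, 20.9 and 21.4 to 16.0, 14.7 and 16.4 CPM (-0.39 ± 0.07). In C4-2B its controls were at 17.9, 14.2 and 13.6 and its knockdowns at 20.4, 20.1 and 19.0 CPM (0.39 ± 0.11). That rise was lost without control 3 (adjusted p = 0.0642), and in 22Rv1 the gene gave 0.20 ± 0.10 (adjusted p = 0.0781), which passed without control 3 (0.019) and with cyclic loess (0.0158).

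In GENCODE 29 on GRCh38 the genes with the changes of at least 1 on the log2 scale in a line lie apart, SREBF1 at chr17:17810399-17837002, SCD at chr10:100347124-100364834, ACAT2 at chr6:159760328-159779055, MVK at chr12:109573255-109598117, ABCA1 at chr9:104781002-104928237, INSIG2 at chr2:118088452-118110997 and TM7SF2 at chr11:65111845-65116384.

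Of the 5 regulators, 4 rose and 1 fell in C4-2B, 2 rose and 2 fell in 22Rv1, and 1 rose and 3 fell in DU145. Of all genes 19.4% rose and 22.3% fell in C4-2B, 33.5% and 34.3% in 22Rv1, and 24.1% and 23.6% in DU145. The 22Rv1 counts lie near the shares of all genes there. SREBF1 rose in all 3 lines while INSIG2 fell in all 3, and SREBF2 and INSIG1 differed between lines. SREBF1 went from 60.8, 64.2 and 59.4 to 207, 207 and 204 CPM in 22Rv1 (1.75 ± 0.04, edgeR adjusted p = 1.00e-17), the highest fold change of the 36 members in that line. DU145 controls held 33.5, 35.8 and 37.5 CPM and knockdowns 65.2, 68.7 and 65.4 CPM (0.90 ± 0.05, edgeR adjusted p = 1.10e-13). The C4-2B levels were 321, 340.2 and 339 and 525, 505 and 538 CPM (0.65 ± 0.04, edgeR adjusted p = 4.51e-13). Every knockdown library lay above every control library of its line. The rise was larger in 22Rv1 than in DU145 by 0.79 ± 0.06 (adjusted p = 1.24e-12), and C4-2B less DU145 gave -0.26 ± 0.06 (adjusted p = 0.000541). Gene counts do not tell the SREBP1a and SREBP1c transcripts apart, and part of the SREBF1 exons (6.9%) overlaps RAI1 on the opposite strand.

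SREBF2 moved much less. Its DU145 controls held 180.3, 198 and 194 CPM and its knockdowns 145, 150.4 and 143 CPM (-0.39 ± 0.05, edgeR adjusted p = 1.62e-07). In C4-2B it held 412, 432 and 409.7 and 443, 461 and 474 CPM (0.14 ± 0.04), a rise that was lost without control 3 (adjusted p = 0.0531). In 22Rv1 the arms overlapped, at 496, 478 and 458 and 465, 440.4 and 449.8 CPM (-0.08 ± 0.04, adjusted p = 0.0586). There it passed as a fall in 7 of 13 alternatives, among them DESeq2 (0.0496), library totals (0.000502), cyclic loess (2.44e-05) and the fits without control 3 (0.00593) or knockdown 1 (0.0397). SREBF2 thus fell in DU145 and did not pass as a rise under any alternative in 22Rv1. A link between its RNA level and the sterol enzymes was not tested.

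SCAP, the escort of both SREBPs, rose from 101, 102 and 102 to 126, 131 and 133 CPM in C4-2B (0.36 ± 0.04). In 22Rv1 it rose from 178, 176 and 164 to 224, 223 and 234 CPM (0.40 ± 0.04). In DU145 the arms overlapped, with 56.0, 62.0 and 63.1 and 60.8, 63.1 and 60.1 CPM (0.02 ± 0.05, adjusted p = 0.801). INSIG1, itself a target of SREBPs, rose in C4-2B from 97.9, 99.3 and 108 to 129, 119.7 and 126 CPM (0.29 ± 0.05). It fell in DU145 from 43.7, 44.7 and 42.6 to 33.0, 38.4 and 36.6 CPM (-0.28 ± 0.06). In 22Rv1 it went from 98.7, 95.2 and 95.8 to 87.6, 90.8 and 88.4 CPM (-0.12 ± 0.04, edgeR adjusted p = 0.0201). The 22Rv1 call was lost without control 1 or knockdown 1 or 3 (adjusted p from 0.0556 to 0.066). In no alternative did INSIG1 pass as a rise in 22Rv1.

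INSIG2, the other anchor, fell in each line, and no libraries of its arms overlapped. Its DU145 level went from 18.1, 20.5 and 19.9 to 9.23, 9.74 and 9.63 CPM (-1.04 ± 0.07, edgeR adjusted p = 3.76e-12). 22Rv1 controls held 10.8, 9.75 and 10.2 CPM and knockdowns 7.05, 7.89 and 6.83 CPM (-0.50 ± 0.12). In C4-2B it went from 29.2, 28.2 and 30.7 to 23.3, 21.5 and 24.1 CPM (-0.36 ± 0.08). The fall was deeper in DU145 than in C4-2B by 0.66 ± 0.12 (adjusted p = 1.81e-05).

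**Figure D4:**
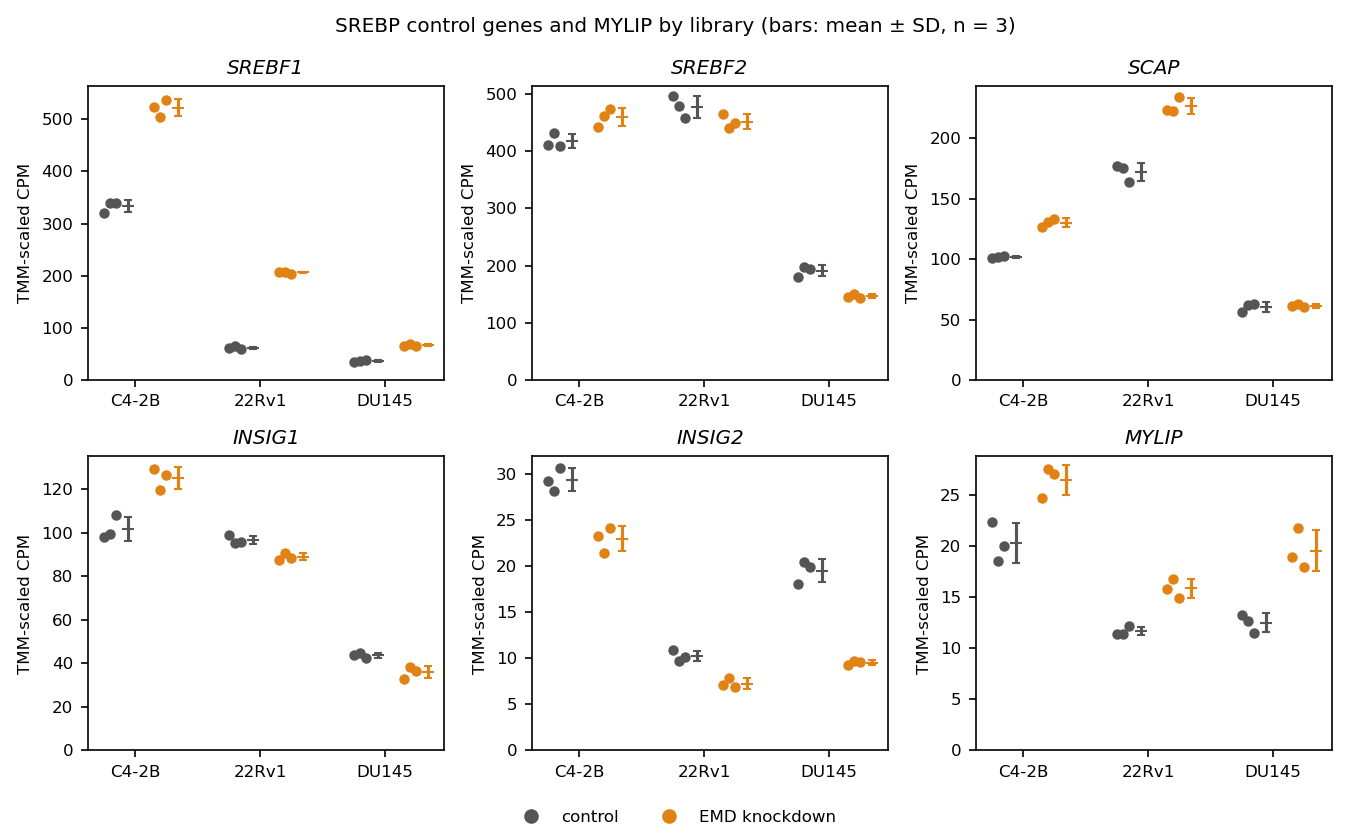
TMM-scaled CPM of SREBF1, SREBF2, SCAP, INSIG1, INSIG2 and MYLIP in each library (points; grey control, orange EMD knockdown), with mean and SD of 3 libraries. SREBF1 and MYLIP are higher and INSIG2 is lower in the knockdown libraries of all 3 lines.

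Genes of sterol movement gave no shared direction except for MYLIP. MYLIP, a ubiquitin ligase that marks lipoprotein receptors for degradation, rose by 0.39 ± 0.09 in C4-2B, 0.44 ± 0.10 in 22Rv1 and 0.65 ± 0.08 in DU145. NPC1, the lysosomal cholesterol exporter, rose in C4-2B (0.32 ± 0.04) and DU145 (0.41 ± 0.05) and gave 0.12 ± 0.07 in 22Rv1 (adjusted p = 0.104). ABCA1, an efflux pump for cholesterol, was below 10 CPM in every library. It fell in 22Rv1 from 2.43, 3.00 and 2.65 to 0.973, 1.28 and 1.06 CPM (-1.28 ± 0.27, edgeR adjusted p = 0.000311) and in DU145 from 6.29, 6.64 and 6.62 to 5.11, 4.24 and 5.18 CPM (-0.43 ± 0.11). In C4-2B it stood at 0.860, 0.576 and 0.445 against 1.35, 1.01 and 1.76 CPM (1.15 ± 0.47, edgeR adjusted p = 0.053). Those arms did not overlap, and the call passed only with library totals among the 13 alternatives (0.0424).

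ABCG1, the other efflux pump, rose in C4-2B from 20.2, 20.8 and 19.9 to 31.6, 37.5 and 33.5 CPM (0.76 ± 0.09, edgeR adjusted p = 8.22e-08). It fell in 22Rv1 from 8.38, 8.75 and 8.70 to 4.99, 5.02 and 5.24 CPM (-0.76 ± 0.13). In DU145 it lay below 1 CPM in all 6 libraries (0.45 ± 0.45). STARD4, a carrier of free sterol, fell in 22Rv1 from 45.1, 41.2 and 43.5 to 32.3, 38.4 and 33.4 CPM (-0.33 ± 0.07). In DU145 its levels were 26.8, 25.9 and 26.9 and 31.0, 28.8 and 29.9 CPM (0.18 ± 0.06), a rise lost in DESeq2 (adjusted p = 0.0755) and without control 2 (0.0597). In C4-2B it gave -0.16 ± 0.08, and it passed as a fall without knockdown 3 (0.0127). SREBF1, ABCA1, ABCG1 and MYLIP are all targets of LXR, and of these SREBF1 and MYLIP rose in 22Rv1 where ABCA1 and ABCG1 fell.

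The 8 fatty acid genes gave no direction shared by all. In 22Rv1 5 of the 8 fell and 2 rose (median -0.382), where 34.3% of all genes fell and 33.5% rose. In DU145 2 rose and 3 fell (median -0.0148), near the 24.1% and 23.6% of all genes. In C4-2B 3 rose and 3 fell (median 0.0541), against 19.4% and 22.3%. SCD, the desaturase that makes oleate, stood at 563, 537 and 536 CPM in 22Rv1 controls and 257, 251 and 251 CPM in knockdowns (-1.11 ± 0.03, edgeR adjusted p = 3.86e-16). In DU145 it rose from 733, 778 and 776 to 1054, 1136 and 1110 CPM (0.53 ± 0.05, edgeR adjusted p = 6.79e-10). In C4-2B it rose from 668, 665 and 632 to 704, 743 and 712 CPM (0.14 ± 0.04), which was lost without control 3 (adjusted p = 0.0677). The fold change of SCD in 22Rv1 less that in DU145 was -1.70 ± 0.06 (adjusted p = 1.53e-22).

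FASN, the fatty acid synthase, fell in 22Rv1 from 2226, 2074 and 1773 to 1432, 1397 and 1405 CPM (-0.52 ± 0.09, edgeR adjusted p = 0.00468). Its controls spread more widely than its knockdowns there. In C4-2B it rose from 853, 898 and 861 to 1019, 1071 and 1160 CPM (0.32 ± 0.04). In DU145 the arms overlapped (0.01 ± 0.05, adjusted p = 0.895). LPIN1, a phosphatidate phosphatase of triglyceride synthesis, fell in 22Rv1 from 79.9, 80.2 and 81.0 to 42.3, 40.6 and 46.2 CPM (-0.90 ± 0.05) and in DU145 from 77.7, 76.1 and 79.4 to 54.8, 59.3 and 55.0 CPM (-0.47 ± 0.05). In C4-2B it rose from 74.2, 73.6 and 73.1 to 77.7, 89.0 and 86.8 CPM (0.20 ± 0.06). For FASN, LPIN1 and SCD the fold changes of C4-2B and 22Rv1 thus had opposite signs, and their differences were 0.88 ± 0.11, 1.15 ± 0.08 and 1.29 ± 0.06.

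ELOVL6, the elongase of palmitate, rose in 22Rv1 from 88.2, 85.0 and 87.5 to 131, 122 and 128 CPM (0.55 ± 0.04) and fell in DU145 from 74.6, 75.5 and 78.9 to 43.2, 45.2 and 41.4 CPM (-0.82 ± 0.05). In C4-2B its levels were 9.79, 9.12 and 7.40 and 10.4, 11.6 and 11.2 CPM (0.35 ± 0.14, edgeR adjusted p = 0.0539), without overlap, and it passed with library totals (0.0269), a minimum count of 30 (0.0403) and without control 1 (0.0348). The desaturases FADS1 and FADS2, neighbours on chromosome 11 that make polyunsaturated fatty acids, parted in DU145. FADS2 rose there from 224, 239 and 239 to 314, 336 and 314 CPM (0.46 ± 0.05) while FADS1 gave -0.04 ± 0.05 (adjusted p = 0.533). In C4-2B FADS2 fell from 821, 813 and 794 to 638, 658 and 629.8 CPM (-0.33 ± 0.04) and FADS1 fell by 0.30 ± 0.04. In 22Rv1 FADS2 fell from 28.1, 26.2 and 26.4 to 22.9, 22.3 and 21.9 CPM (-0.27 ± 0.07) and FADS1 by 0.50 ± 0.04.

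ACLY, which supplies cytosolic acetyl-CoA from citrate, changed by small amounts that depended on single libraries or on the scaling. It gave -0.12 ± 0.04 in C4-2B, from 554, 563 and 553 to 496, 522 and 524 CPM, and the call was lost with library totals (adjusted p = 0.165) and cyclic loess (0.0645). In 22Rv1 it gave 0.10 ± 0.03, from 509.6, 499 and 495 to 543, 531 and 539 CPM, lost with library totals (0.563), with cyclic loess (0.436) and without knockdown 1 (0.0781) or 3 (0.0621). In DU145 it gave -0.12 ± 0.05, from 489.9, 523 and 526 to 461, 481 and 469.9 CPM, lost with median-of-ratios size factors (0.0535), with no filter (0.136) and without control 2 or 3 or any knockdown (0.0862 to 0.332). ACACA, which makes malonyl-CoA and commits carbon to fatty acids, did not pass in any line, with -0.03 ± 0.04, -0.08 ± 0.04 and 0.05 ± 0.05 in C4-2B, 22Rv1 and DU145. In 22Rv1 it passed as a fall with library totals (0.00117), a minimum count of 30 (0.0215), cyclic loess (5.09e-05) and without control 2 (0.0465) or 3 (0.0306). The entry enzymes ACLY and ACACA thus moved little next to SCD, ELOVL6 and LPIN1.

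**Figure D5:**
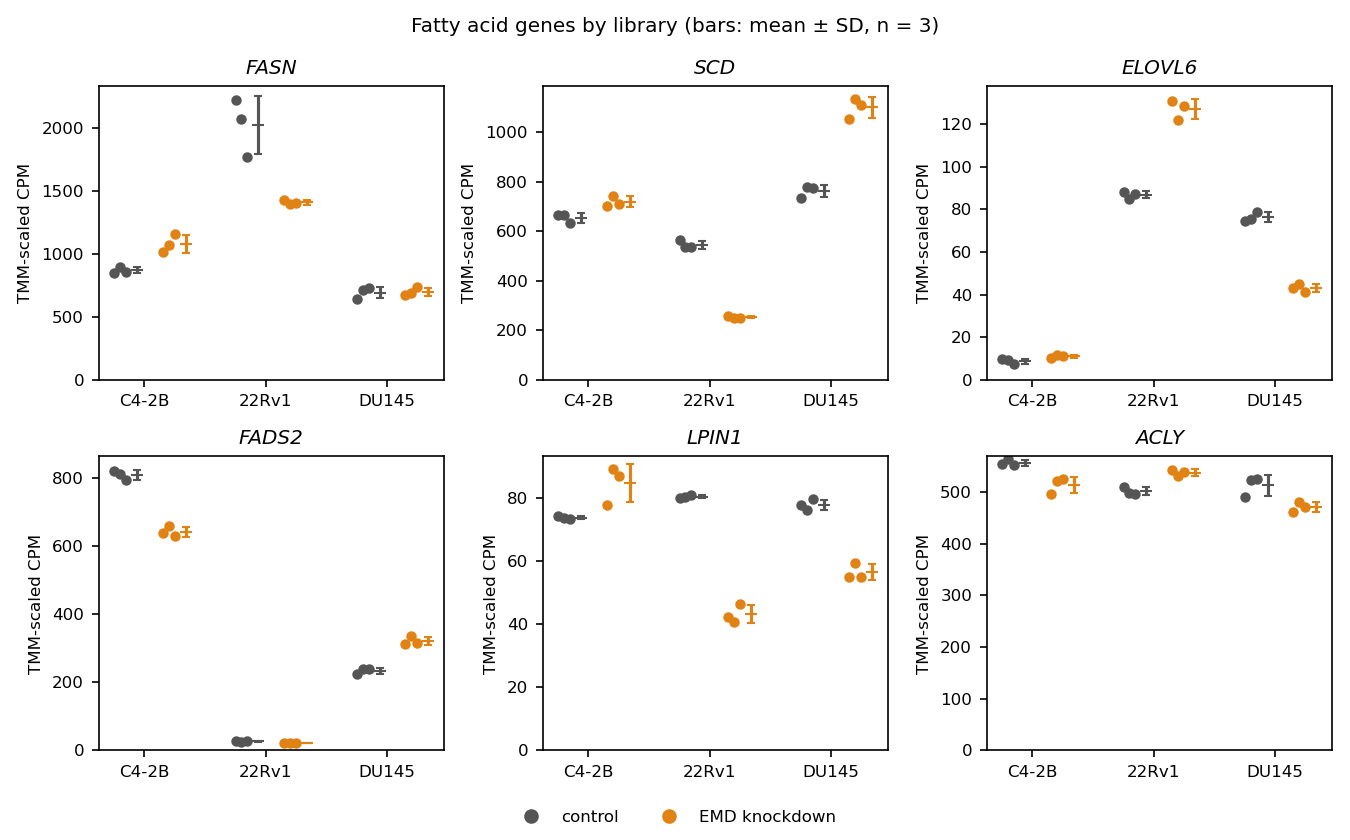
TMM-scaled CPM of FASN, SCD, ELOVL6, FADS2, LPIN1 and ACLY in each library (points; grey control, orange EMD knockdown), with mean and SD of 3 libraries. In 22Rv1 FASN, SCD, FADS2 and LPIN1 are lower in the knockdown libraries and ELOVL6 is higher, and in DU145 SCD and FADS2 are higher.

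The difference between lines was tested in 1 fit of all 18 libraries. The fold changes of 33 of the 36 members (91.7%) differed between 22Rv1 and DU145, where 55.6% of 17152 genes tested did. Between C4-2B and 22Rv1 27 members (75.0%) differed, against 56.1% of all genes. Between C4-2B and DU145 24 members (66.7%) differed, against 45.7%. Members that passed in opposite directions, with a difference past the threshold, numbered 15 (41.7%), 11 (30.6%) and 8 (22.2%) in these pairs, against 20.2%, 19.4% and 14.7% of all genes tested in both lines. The pairs share their lines, and date, table and medium cannot be told apart from the line. The shares over all genes were not matched for level, and within each line the share of genes called climbed with level.

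The wider pathway was read from 8 further lists, whose counts stand against the shares of all genes that rose and fell, 19.4% and 22.3% in C4-2B, 33.5% and 34.3% in 22Rv1, and 24.1% and 23.6% in DU145. The isoprenoid branch, which draws on the same precursors to make ubiquinone tails, dolichol and protein prenyl groups, rose in 22Rv1 in 10 of 12 cases with 0 falls (median 0.601). The 12 genes lay at 10 CPM or more in 22Rv1. There 31.8% of all genes between 10 and 30 CPM rose, and 49.8% to 55.2% of those from 30 CPM. PDSS1, which makes the ubiquinone tail, rose there by 1.02 ± 0.10, the prenyl transferase subunit RABGGTA by 0.90 ± 0.08 and the prenyl-protein methyltransferase ICMT by 0.78 ± 0.04. In C4-2B 3 of the 12 rose and 5 fell (median -0.114), with PDSS1 at -0.82 ± 0.15, and in DU145 3 rose and 4 fell (median 0.0555), near the shares of all genes, with PDSS1 at -0.50 ± 0.11. PDSS1 thus rose and fell in the same lines as ACAT2. Of 8 further sterol genes 7 fell and 1 rose in C4-2B (median -0.352), 3 fell and 1 rose in 22Rv1, and 1 fell and 2 rose of 7 tested in DU145. FAXDC2, a relative of the sterol oxidases, fell by 3.03 ± 0.10 in 22Rv1 and by 1.00 ± 0.20 in C4-2B. TMEM97, an SREBP target of the lysosome and endoplasmic reticulum, rose in 22Rv1 (0.69 ± 0.06) and fell in C4-2B (-0.44 ± 0.06). It rose in DU145 by 0.17 ± 0.05, a call lost without knockdown 2 (adjusted p = 0.106).

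Genes that process or degrade the SREBP complex rose in 5 of 8 cases and fell in 2 in 22Rv1 (median 0.284). Most of them lay at 30 CPM or more in 22Rv1, where 49.8% to 55.2% of all genes rose and 24.6% to 27.3% fell. MBTPS1, the site-1 protease that makes the first cut in SREBPs, rose there by 0.49 ± 0.04. In C4-2B 2 rose and 2 fell, with ERLIN1, a partner in the degradation of INSIGs, at -0.41 ± 0.11. In DU145 4 rose and 3 fell, with its relative ERLIN2 at -0.66 ± 0.05. In the LXR list 4 rose and 5 fell of 9 in 22Rv1, 4 rose and 3 fell in C4-2B, and 2 rose and 2 fell in DU145. NR1H3, which encodes LXR-alpha, rose in DU145 by 0.92 ± 0.16 from 2.31 CPM. MLXIPL, the carbohydrate-responsive factor ChREBP, fell in 22Rv1 (-1.31 ± 0.15) and rose in C4-2B (0.92 ± 0.16).

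Among 14 genes of sterol uptake, storage and trafficking, 6 fell and 4 rose of 13 tested in 22Rv1, 6 fell and 2 rose in DU145, and 4 fell and 3 rose in C4-2B. LRP1, a large endocytic lipoprotein receptor, fell in 22Rv1 by 2.29 ± 0.11 from 67.8 CPM and in DU145 by 1.15 ± 0.06. In C4-2B LRP1 went the other way, from 160, 154.5 and 159.7 to 188.6, 228.7 and 237.9 CPM. NPC2, the soluble partner of NPC1 in the lysosome, fell in DU145 by 1.72 ± 0.06 from 92.7 to 28.2 CPM and in C4-2B by 0.56 ± 0.07, so NPC1 and NPC2 moved in opposite directions in those lines. SOAT1, which esterifies cholesterol for storage, fell in C4-2B by 0.52 ± 0.05. In 22Rv1 SOAT1 went from 60.75, 53.67 and 61 to 78.37, 80.02 and 79.74 CPM, and in DU145 its arms overlapped.

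Of 26 other genes of fatty acid synthesis, elongation and activation, 13 fell and 8 rose of 24 tested in 22Rv1, 9 fell and 1 rose of 21 in C4-2B, and 7 fell and 7 rose of 25 in DU145. ACSL4, which activates polyunsaturated fatty acids, fell in 22Rv1 (-2.30 ± 0.14), and SCD5, a further desaturase, fell there (-2.21 ± 0.07), beside the fall of SCD. ACSL4 also went from 21.17, 19.39 and 21.27 to 12.27, 11.51 and 13.61 CPM in C4-2B. In DU145 ACSL4 went from 111.9, 119.7 and 123 to 68.55, 70.79 and 65.16 CPM. ACSS2, which makes acetyl-CoA from acetate and is an SREBP target, fell in DU145 by 1.33 ± 0.07 from 25.1 to 10.00 CPM. ACSL3, an activator of fatty acids on lipid droplets, fell in C4-2B from 586 to 335 CPM (-0.81 ± 0.04). In DU145 ACSL3 went from 108.1, 108.9 and 112.1 to 176.4, 188.7 and 177.2 CPM. In 22Rv1 it went from 111.3, 102 and 107 to 122.1, 116.2 and 118.4 CPM. In the glycerolipid list 7 rose and 7 fell of 17 in 22Rv1, 4 rose and 7 fell in DU145, and 3 rose and 3 fell of 15 in C4-2B. The lysophosphatidate acyltransferase AGPAT4 fell in 22Rv1 (-4.09 ± 0.32) and in C4-2B (-0.85 ± 0.25) and rose in DU145 (0.86 ± 0.12), in each case from a control mean under 5 CPM. MGLL, monoglyceride lipase, fell in DU145 from 184 to 65.2 CPM on average and in 22Rv1 from 46.8 to 19.7 CPM (-1.24 ± 0.07).

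Of the 18 genes of fatty acid oxidation, 11 fell and 3 rose in C4-2B (median -0.26), 12 rose and 5 fell of 17 tested in 22Rv1 (median 0.311), and 4 rose and 4 fell in DU145 (median 0.0446). Of all genes 22.3% fell in C4-2B and 33.5% rose in 22Rv1, and the DU145 counts lie near the 24.1% and 23.6% of all genes there. SLC25A20, the carnitine carrier of mitochondria, fell in C4-2B by 0.73 ± 0.09. ACADVL, the first dehydrogenase for very long chains, fell in 22Rv1 by 0.65 ± 0.05 although most of that list rose there. DECR1, which handles unsaturated chains, rose in DU145 by 0.56 ± 0.06. As with the sterol enzymes, the 22Rv1 rises stand beside the general rise of genes of higher level in that line.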

How the data were processed

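Total RNA of 3 lines was sequenced in 18 libraries, 3 per group. The deposited values are expected counts per gene, in whole numbers, which the authors made with STAR and RSEM 1.3.1 on GRCh38, per the submitters' processing notes; annotation release and strandedness are not given in the sources used here. For DU145, 92 spike-in entries and 30 copies from the pseudoautosomal region were left out. Each line was fitted apart in edgeR 4.0.16 (R 4.3.3) after its expression filter (minimum count 10, total 15) and TMM scaling, with the robust quasi-likelihood test and Benjamini-Hochberg adjustment over all genes tested, at 0.05. Differences between lines came from 1 fit of all 18 libraries. DESeq2 1.42.0 and limma 3.58.1 were alternatives. The 36 members and all lists were chosen with earlier results of these data known. From each further list at most 3 genes per line are named, those of largest fold change among called genes whose libraries do not overlap. Where a line is not given for such a gene, the gene may move either way there. Totals ran from 14722733 to 43311727 reads. Some items of the fixed lists are not reported here.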

Additional observations from a re-analysis of the deposited data

Results flagged for a closer look

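The knockdown moved some of the 36 genes in opposite directions in a pair of lines, with a difference in fold change that itself passed edgeR's test over the 18 libraries. Between 22Rv1 and DU145 there were 15 such genes (41.7%, against 20.2% of all genes). The log2 fold change of 22Rv1 less that of DU145 was above 0 for these genes of sterol synthesis, citrate cleavage and elongation: ACAT2 1.53, ACLY 0.164, CYP51A1 1.43, DHCR7 0.87, EBP 0.808, ELOVL6 1.31, HMGCS1 0.864, IDI1 1.03, LSS 1.49, MVK 1.17, NSDHL 0.987 and TM7SF2 1.79. It was below 0 for the desaturases FADS2 -0.787 and SCD -1.7 and the sterol carrier STARD4 -0.571. The desaturase FADS1 is not among these genes, since it did not pass in DU145. The adjusted p was lowest for SCD (1.53e-22) and highest for ACLY (0.00837).

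Between C4-2B and 22Rv1 there were 11 (30.6%, against 19.4%). Subtracting the log2 fold change in 22Rv1 from that in C4-2B gave a value above 0 for ABCG1 1.57, FASN 0.882, INSIG1 0.463, LPIN1 1.15 and SCD 1.29. It was below 0 for ACAT2 -1.94, ACLY -0.168, EBP -0.903, HMGCS1 -0.837, IDI1 -0.955 and NSDHL -1.1. Of the 6 below 0, 5 are sterol enzymes and ACLY is the exception, with an adjusted p of 0.00721 from edgeR.

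Between C4-2B and DU145 there were 8 (22.2%, against 14.7%). With DU145 subtracted from C4-2B the value was above 0 for HSD17B7 0.762, INSIG1 0.563, LPIN1 0.652, LSS 1.08, SREBF2 0.509 and TM7SF2 1.37. It was below 0 for FADS2 -0.804 and SQLE -0.952. Some of these within-line calls were lost in at least 1 alternative, namely those of ACLY in each line, NSDHL in C4-2B and DU145, HSD17B7, LSS, SCD and SREBF2 in C4-2B, HMGCS1 and INSIG1 in 22Rv1, and MVK and STARD4 in DU145. Line, table, date label and, for DU145, medium cannot be told apart in any of these differences. The shares of all genes set beside the counts were not matched for level.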

How the results depend on the processing

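Counts of the 36 genes past the threshold stayed within 1.5 times of the reported ones under DESeq2, median-of-ratios size factors, library totals, no filter, a minimum count of 30, limma-voom with cyclic loess, the replicate block and each left-out library. Of 1402 values of single members under these alternatives 1338 had the same call, 37 lost it, 25 gained one and 2 turned direction with a call in one of the fits. The last were in 22Rv1 with cyclic loess, where MSMO1 was -0.1369 and ACLY -0.02549. A further 31 values changed sign with no call in either fit and are among those with the same call. The changed calls concerned 24 of 108 pairs of gene and line, and their cause was not tested. Outside the members, 973 values of 75 pairs of gene and line were followed. Of these 970 kept their call and 3 lost it. The losses were SMPDL3A in C4-2B without control 2 or knockdown 2 and TMEM97 in DU145 without knockdown 2. The pairs were EMD and, per list and line, at most 3 called genes of largest fold change whose libraries do not overlap. Such calls were likely to hold and none could be gained. The remaining genes of those lists were not followed. Library totals moved the share of rises among all called genes in C4-2B from 46.6% to 57.0%, in DU145 from 50.5% to 57.1% and in 22Rv1 from 49.5% to 42%.

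The labels do not say that replicate numbers pair the libraries. Correlations of same-numbered deviations were -0.0401 to 0.0182 in C4-2B, -0.0184 to 0.0285 in 22Rv1 and 0.0354 to 0.294 in DU145. Those of unlike numbers in DU145 ran from -0.233 to 0.141, so whether the numbers pair its libraries is not known. With the replicate block 6623, 11146 and 9860 genes passed in C4-2B, 22Rv1 and DU145, against 6584, 11288 and 9232. The members called higher and lower stayed at 13 and 12, 17 and 11, and 7 and 22, and those that differed between lines at 27, 24 and 33. Members near 1 CPM, such as ABCA1 in C4-2B and ABCG1 in DU145, are limited by depth.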
